A study of Mus musculus with 9 samples.

Results

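The transcripts of 10 genes that encode transcription factors linked to endothelial identity were followed through single-cell RNA-seq libraries of mouse liver. They were chosen by name from a table of 27998 genes as Gata4, Maf, Meis2, Tfec, Klf2, Klf4, Mecom, Nr2f2, Erg and Sox18, and all 10 passed the filter on low counts in endothelial-like cells. The comparisons asked how their levels in endothelial-like cells, and in other classes that express them, differed with the length of YAP induction. The 9 libraries came from C57BL/6 mice that carried ROSA26-rtTA-IRES-EGFP, a doxycycline-dependent transactivator, and all mice ate doxycycline food. The 2 WT libraries were from mice without the YAP transgene after 7 days of doxycycline, the 4 YAP3d libraries from tetYAP mice after 3 days and the 3 YAP7d libraries from tetYAP mice after 7 days. In the study's crosses the transactivator was switched on by Cre under the albumin promoter, so a constitutively active form of YAP was directed to hepatocytes and not to the endothelial cells measured here. WT and YAP7d shared the length of feeding, whereas WT and YAP3d differed in it as well as in genotype, and the age of the mice is not given in the labels.

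Liver sinusoidal endothelial cells line the capillaries of the liver and carry pores that let plasma reach the hepatocytes. The zinc-finger factor Gata4 is known to set this sinusoidal type of capillary against the continuous type, and the bZIP factor Maf and the homeodomain factor Meis2 are also expressed there. Krüppel-like factors such as Klf2 and Klf4 are raised in endothelium by laminar blood flow, while Nr2f2 (COUP-TFII), the ETS factor Erg and the SoxF factor Sox18 act in vessels of many organs.

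The promoters of Klf2, Klf4 and Tfec are shown because these 3 genes had most of their UMIs (unique molecular identifiers, 1 for each captured RNA molecule), summed over all 9 libraries, outside endothelial-like cells. For Tfec this held within YAP7d and not within WT or YAP3d. Windows from 250 bases before to 50 bases after the annotated start were taken from a set of RefSeq promoters (GRCm38.p6), which held windows for 7 of the 10 genes. Gata4, Maf and Sox18 had no window in that set, though RefSeq lists these genes. The sequences run 5′ to 3′ on the strand of the gene, and capitals mark matches on either strand to the letters given after them.
Klf2 (chr8:72318812-72319111, plus strand): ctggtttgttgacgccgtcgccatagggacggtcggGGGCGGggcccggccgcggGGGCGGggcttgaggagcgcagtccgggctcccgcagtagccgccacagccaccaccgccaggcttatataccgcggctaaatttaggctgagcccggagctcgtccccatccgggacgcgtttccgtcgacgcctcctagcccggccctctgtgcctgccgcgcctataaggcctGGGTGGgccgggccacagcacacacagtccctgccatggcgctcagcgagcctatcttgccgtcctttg
Klf4 (chr4:55532426-55532725, minus strand): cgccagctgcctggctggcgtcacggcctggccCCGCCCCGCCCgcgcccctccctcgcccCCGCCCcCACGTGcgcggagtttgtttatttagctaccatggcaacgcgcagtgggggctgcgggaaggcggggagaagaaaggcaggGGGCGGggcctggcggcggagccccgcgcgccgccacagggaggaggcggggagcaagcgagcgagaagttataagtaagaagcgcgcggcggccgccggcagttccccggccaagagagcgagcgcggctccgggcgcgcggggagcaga
Tfec (chr6:16898392-16898691, minus strand): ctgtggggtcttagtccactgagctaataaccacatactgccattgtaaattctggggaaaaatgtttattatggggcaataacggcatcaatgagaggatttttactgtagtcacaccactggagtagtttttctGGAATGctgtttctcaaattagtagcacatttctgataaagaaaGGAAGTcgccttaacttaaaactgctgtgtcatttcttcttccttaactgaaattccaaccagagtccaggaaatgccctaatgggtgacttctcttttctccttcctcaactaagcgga
The letters searched were GGGCGG for a GC box, CCACCC for a CACCC box, CACGTG for an E-box, CATTCC for a TEAD type, GGAAGT for an ETS type, AGATAA for a GATA type, TATTTATA for a MEF2 type, ACAAAG for a SOX type and TGCTGA for a MAF half-site. The Klf2 window held the GC box at 2 places and the CACCC box at 1. The Klf4 window held the GC box at 4 places, of which the first pair shares a base, and an E-box. The Tfec window held 1 TEAD-type and 1 ETS-type match and no GC box. G and C made up 69.3% of the Klf2 window, 74.3% of the Klf4 window and 40.3% of the Tfec window, against a median of 52.7% over 32817 promoter windows of the same length. Of those, 35.6% held the GC box, 31.5% the CACCC box, 7.15% the E-box, 14.7% the TEAD type and 23.8% the ETS type. Erg held GATA-type, MEF2-type and MAF letters, each in 1 of the 10 windows of the 7 genes (shares of all windows 11.2%, 1.70% and 19.5%), and no member window held the SOX-type letters found in 18.7% of all windows. The TEAD-type letters were in 3 of the 10 windows, which belong to Erg and Tfec, against 14.7% of all windows. A match describes letters only, and binding was not measured.

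After cells with under 200 detected genes were removed, 8527 of 8562 cells remained and formed 26 clusters, which were named by fixed markers, without use of the 10 genes. Libraries had a median of 3190.5 to 11472 UMIs per cell, and 46 cell barcodes occurred in more than 1 library. Endothelial-like cells numbered 1918, with 275 and 487 in WT, 74, 51, 161 and 761 in YAP3d and 23, 23 and 63 in YAP7d. All 16 endothelial markers had counts in endothelial-like cells of each library, with a summed level of 19891 to 23052 CPM (the counts of a gene in a class and library, scaled to 1000000 UMIs) in WT, 18324 to 21301 in YAP3d and 9650.2 to 10224 in YAP7d. Transcripts of the gene Gm10709 were at 340.0 to 611 CPM over all cells in YAP3d replicates 1 and 2 and in all YAP7d libraries, and at 3.62 to 11.2 CPM in the rest.

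Summed over all libraries, Gata4, Maf, Meis2, Mecom, Nr2f2, Erg and Sox18 had most of their UMIs in endothelial-like cells. Tfec, Klf2 and Klf4 had most of theirs in other classes. Endothelial-like cells held 94.2% of the UMIs of Sox18, 93.4% of Meis2, 92.7% of Gata4, 91.5% of Nr2f2, 88.3% of Erg, 78.3% of Mecom and 68.0% of Maf. They held 42.0% of the UMIs of Tfec, 22.2% of Klf4 and 16.8% of Klf2. These shares sum all libraries and move with the make-up of the groups, since macrophage-like cells numbered 96 in WT, 176 in YAP3d and 789 in YAP7d. Within WT, YAP3d and YAP7d, endothelial-like cells held 82.0, 74.9 and 7.09% of the Tfec UMIs, and macrophage-like cells 13.6, 16.5 and 78.7%. For Klf4 the endothelial-like shares were 45.0, 35.2 and 3.03%, and for Klf2 32.5, 22.3 and 3.67%. For Maf they were 86.3, 81.7 and 16.5%, and macrophage-like cells held 70.9% in YAP7d. Erg had 94.5, 92.4 and 58.5%, with 32.0% in macrophage-like cells in YAP7d, and Mecom 75.2, 81.3 and 84.2%. The endothelial-like shares of Gata4, Meis2, Nr2f2 and Sox18 were at least 82.8% in every group. The mean level in endothelial-like cells (SD over 9 libraries) was 117 ± 36.1 CPM for Gata4, 348 ± 74.3 for Meis2, 19.6 ± 10.8 for Mecom, 282 ± 79.6 for Nr2f2, 99.5 ± 32.3 for Erg and 286 ± 42.8 for Sox18. For these 6 genes no other class measured in 4 or more libraries exceeded the 28.5 CPM of Nr2f2 in neutrophil-like cells. A single library with enough stellate- or fibroblast-like cells gave 114 CPM of Meis2. Classes come from clustering, so levels between them are described and not tested.

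Maf and Tfec had macrophage-like cells as their next class. Maf is known in macrophages as a factor of differentiation, and it had 1020.4 ± 447 CPM in endothelial-like against 403 ± 151 CPM in macrophage-like cells (9 libraries each), higher in the former in 9 of 9 libraries. Neutrophil-like cells (4 libraries) and T cell-like cells (9 libraries) followed with 101 ± 144 and 90.1 ± 49.3 CPM of Maf and did not differ beyond their spread. Tfec, a bHLH factor of the Mitf family with known roles in macrophages, had 61.4 ± 27.0 CPM in endothelial-like and 49.4 ± 14.1 CPM in macrophage-like cells. These neighbours did not differ beyond their spread either, with a difference within libraries of 12.01 ± 27.2 CPM and the endothelial-like value higher in 6 of 9. Monocyte-like cells came next for Tfec with 10.3 ± 7.77 CPM, below macrophage-like cells in 7 of 7 libraries.

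Klf2 and Klf4 were highest outside the endothelium. Klf2, known in lymphocytes as a factor of quiescence and recirculation, had 2641 ± 690.1 CPM in B cell-like cells (9 libraries) and 2365 ± 816 CPM in plasmacytoid dendritic cell-like cells (4 libraries), which did not differ beyond their spread. Neutrophil-like cells had 1559 ± 872 CPM of Klf2 (4 libraries), endothelial-like cells 1039.5 ± 328 CPM (9 libraries) and monocyte-like cells 1036 ± 295 CPM (7 libraries), again within the spread of each pair. Klf4, a factor of monocyte differentiation, had 295 ± 127 CPM in monocyte-like cells (7 libraries), 165 ± 64.5 CPM in cDC2-like cells (8 libraries) and 142 ± 72.8 CPM in endothelial-like cells (9 libraries). Monocyte-like cells were above cDC2-like cells in 6 of 6 libraries with both, while cDC2-like cells were above endothelial-like cells in 5 of 8, which is within the spread. The single library with stellate- or fibroblast-like cells had 558 CPM of Klf4.

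**Figure D1:**
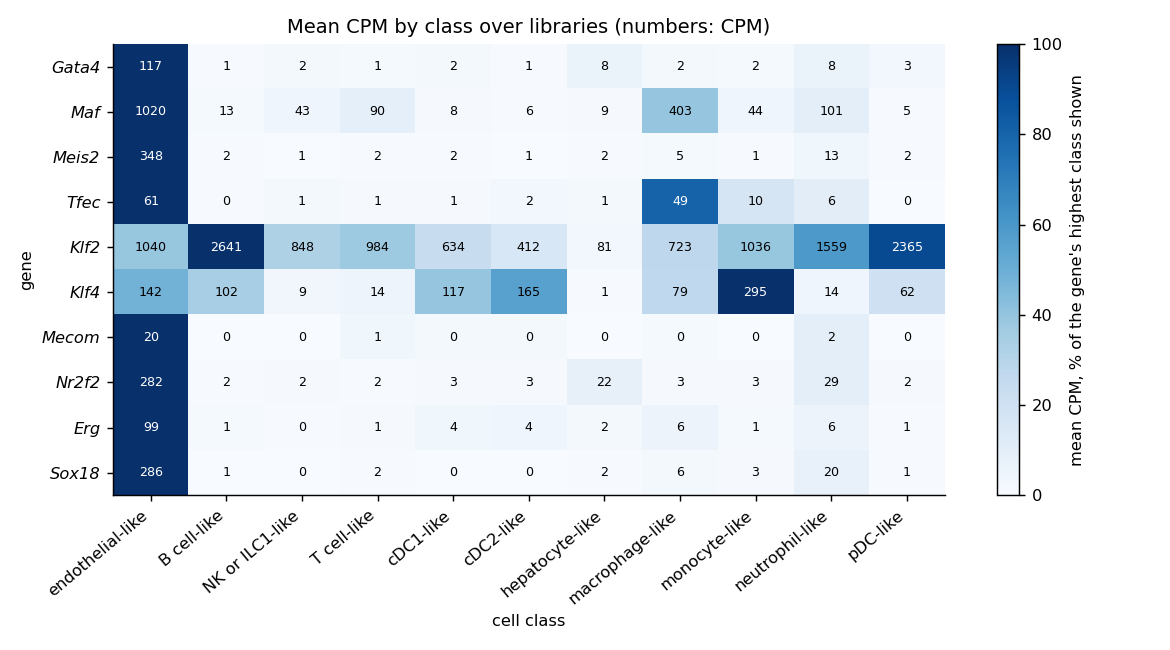
Mean CPM over libraries of each of the 10 genes (vertical) in each cell class measured in 4 or more libraries (horizontal), with the colour scaled to the highest class of each gene. Endothelial-like cells are the highest class for Gata4, Meis2, Mecom, Nr2f2, Erg and Sox18, Maf and Tfec are also seen in macrophage-like cells, and Klf2 is highest in B cell-like cells.

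In endothelial-like cells the 4 sinusoidal members were lower in YAP7d than in WT. Counts were summed over the class in each library, and the library was the replicate. In bulk sums of this kind, fewer cells that express a gene and less RNA per cell cannot be told apart. Gata4 had 144 and 136 CPM in WT, 157, 129, 142 and 138 CPM in YAP3d and 70.1, 67.6 and 73.2 CPM in YAP7d, in the order of the replicate numbers. All YAP7d libraries were below all others, and WT and YAP3d overlapped. YAP7d differed from WT by -0.89 on the log2 scale (edgeR, SE 0.209, adjusted p 0.00735), where edgeR stands for its quasi-likelihood test with Benjamini-Hochberg adjustment over all genes tested and the threshold was 0.05.

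Maf had 1646 and 1039.9 CPM in WT, 1345, 1112, 1351 and 1270.1 CPM in YAP3d and 425, 595 and 399 CPM in YAP7d. The WT libraries lay on either side of the YAP3d range, and YAP7d lay below all of them. The difference of YAP7d from WT was -1.46 on the log2 scale (edgeR, SE 0.202, adjusted p 1.26e-04). Meis2 had 436 and 379.7 CPM in WT, 394, 369, 371 and 408 CPM in YAP3d and 276, 289 and 207 CPM in YAP7d. YAP7d was again lowest without overlap, by a smaller margin. The difference of Meis2 was -0.63 on the log2 scale (edgeR, SE 0.177, adjusted p 0.0202). Tfec had 71.3 and 72.7 CPM in WT, 90.6, 102, 73.6 and 49.2 CPM in YAP3d and 28.0, 27.1 and 38.3 CPM in YAP7d. YAP3d spread on both sides of WT and YAP7d lay below both, on 6, 6 and 34 counts. The difference of Tfec was -1.01 on the log2 scale (edgeR, SE 0.318, adjusted p 0.0370).

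The flow pair was lower in YAP7d as well. Klf2 had 1335 and 1246 CPM in WT, 1309.8, 1426, 1099.8 and 994 CPM in YAP3d and 491, 789 and 665 CPM in YAP7d. No YAP7d library reached any WT or YAP3d library, and Klf2 differed from WT by -0.92 on the log2 scale (edgeR, SE 0.191, adjusted p 0.00309). Klf4 had 231 and 182 CPM in WT, 185, 157, 163 and 198 CPM in YAP3d and 9.35, 54.1 and 98.0 CPM in YAP7d. The YAP7d libraries were below the rest and far apart from each other, on 2, 12 and 87 counts. Klf4 differed from WT by -1.55 on the log2 scale (edgeR, SE 0.378, adjusted p 0.00919).

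Of the 4 vascular members Nr2f2 passed the threshold. Nr2f2, a nuclear receptor of venous identity, had 314 and 375 CPM in WT, 314, 318, 339 and 318 CPM in YAP3d and 149.6, 257 and 155 CPM in YAP7d. WT and YAP3d overlapped and YAP7d lay below both, with a difference from WT of -0.85 on the log2 scale (edgeR, SE 0.204, adjusted p 0.00869). Erg, which maintains endothelial junctions and gene expression, had 144 and 99.9 CPM in WT, 136, 83.1, 138 and 93.7 CPM in YAP3d and 65.4, 72.2 and 63.0 CPM in YAP7d. YAP7d was lowest without overlap, but the difference of -0.79 on the log2 scale (edgeR, SE 0.270, adjusted p 0.0528) missed the threshold. Mecom, a zinc-finger factor known from haematopoietic stem cells and arterial endothelium, had 34.5 and 33.0 CPM in WT, 24.4, 9.23, 14.4 and 19.2 CPM in YAP3d and 4.67, 27.1 and 10.1 CPM in YAP7d. Both induced groups lay below WT and overlapped each other, and the YAP7d values rest on 1, 6 and 9 counts. The difference of Mecom was -1.33 on the log2 scale (edgeR, SE 0.455, adjusted p 0.0528). Sox18, a factor of lymphatic and blood vessel formation, had 332 and 356 CPM in WT, 293, 295, 249 and 278 CPM in YAP3d and 271, 293 and 209 CPM in YAP7d. YAP3d and YAP7d overlapped below WT, and Sox18 differed between YAP7d and WT by -0.38 on the log2 scale (edgeR, SE 0.177, adjusted p 0.150).

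**Figure D2:**
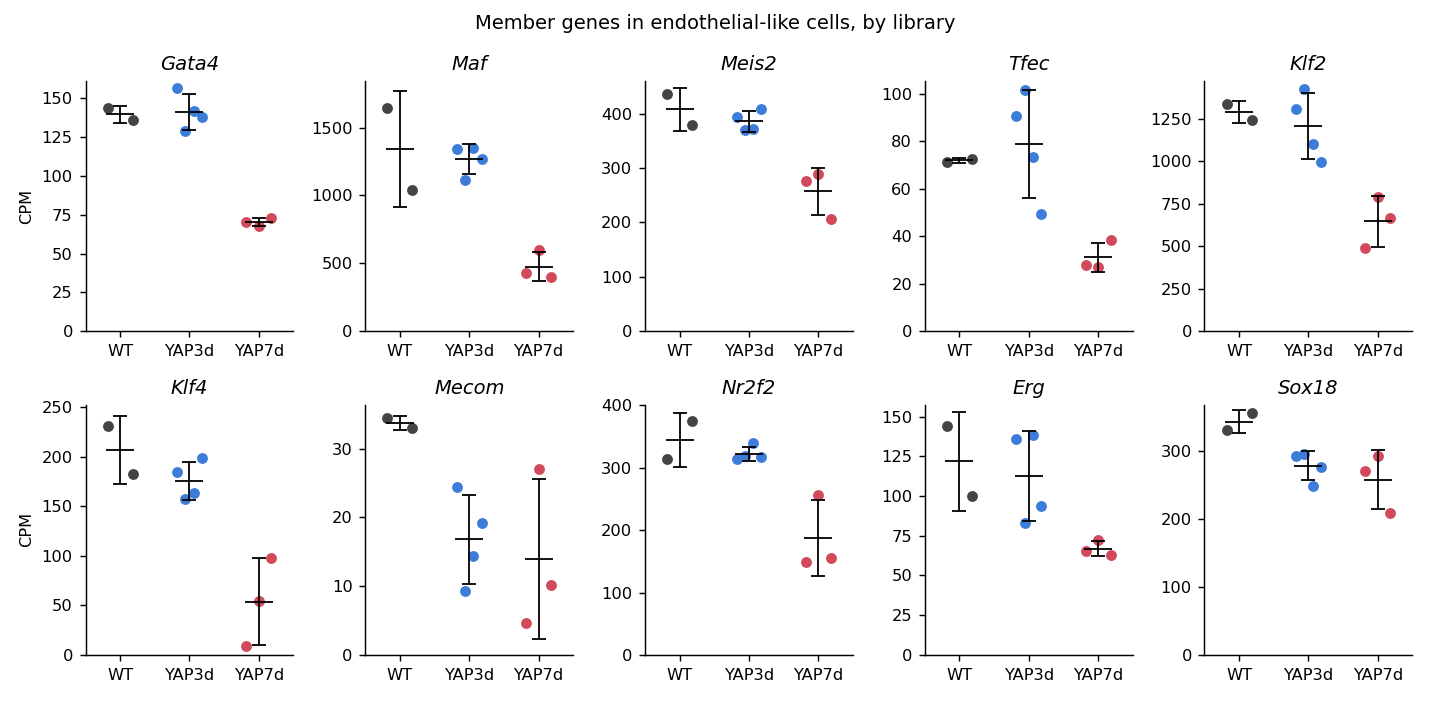
CPM (vertical axes, from 0) of the 10 genes in endothelial-like cells, with 1 point per library for WT (n = 2), YAP3d (n = 4) and YAP7d (n = 3), and the mean with SD per group. The YAP7d points lie below the WT points in all 10 panels, and for Mecom and Sox18 the YAP3d points do too.

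Together 7 of 10 members were lower in YAP7d than in WT by edgeR and 0 were higher, where 7.97% of 7515 genes were lower and 10.3% higher. The median log2 difference was -0.91 over the members and -6.42e-04 over all genes. The libraries of YAP7d lay below those of WT for 10 of 10 members and for 24.4% of genes. DESeq2 called Gata4, Maf, Meis2, Klf2 and Nr2f2, 5 of 10, where it called 13.2% of genes in either direction. Maf and Klf2 passed under all 24 alternative settings tried, of which a finer clustering (Leiden resolution 2) and the class with an unnamed cluster of 28 cells added gave equal numbers of cells and UMIs in every library and equal differences. With cells thinned to 1500 UMIs 3 members passed (Maf, Klf2 and Sox18), where 19.6% of genes did, and Gata4 (-1.24), Meis2 (-0.79), Klf4 (-1.27) and Nr2f2 (-0.14) missed the threshold, while Tfec was too low to test. With a gate on fixed markers in place of clusters 3 members passed (Maf, Klf2 and Klf4), where 7.87% of genes did, and Gata4 (-0.82), Meis2 (-0.59), Tfec (-0.74) and Nr2f2 (-0.81) missed it. Where 1 WT library is left out, the other is assumed to vary like the libraries of the other groups. Meis2 missed the threshold without WT replicate 1 (-0.57) and without YAP7d replicate 3 (-0.50), Nr2f2 without WT replicate 2 (-0.73), and Tfec without WT replicate 1 (-1.06), WT replicate 2 (-1.02), YAP7d replicate 1 (-0.95) or YAP7d replicate 2 (-0.90). Erg passed it without WT replicate 2 (-1.06), YAP3d replicate 2 (-0.81), YAP3d replicate 3 (-0.81) or YAP3d replicate 4 (-0.79), and Mecom without YAP3d replicate 2 (-1.36), YAP3d replicate 4 (-1.34) or YAP7d replicate 2 (-1.78).

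Gm10709 transcripts marked all YAP7d and no WT libraries. With a term for these libraries 3 members were called (Maf, Tfec and Klf2), where 3.13% of genes were, and all 10 differences stayed below 0. Of the 7 called without it, 4 missed the threshold with the term, namely Gata4, at -0.91 against -0.89 without it, Meis2, at -0.58 against -0.63, Klf4, at -1.44 against -1.55, and Nr2f2, at -0.78 against -0.85. Within YAP3d, the libraries with Gm10709 transcripts were above those without for Tfec, Klf2 and Sox18 and overlapped with them for the other 7 genes.

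After 3 days of induction edgeR called 0 of 10 members against WT, with 1 (Mecom) at an unadjusted p below 0.05, and DESeq2 called 0. Of all genes 0.0% were called by edgeR, with 140 at an unadjusted p below 0.05. The log2 differences were 0.00036 (SE 0.179) for Gata4, -0.10 (SE 0.187) for Maf, -0.093 (SE 0.161) for Meis2 and -0.034 (SE 0.262) for Tfec. The flow pair differed by -0.13 (SE 0.180) for Klf2 and -0.22 (SE 0.324) for Klf4, and Nr2f2 and Erg by -0.12 (SE 0.184) and -0.12 (SE 0.233). Mecom, at -0.92 (SE 0.356), and Sox18, at -0.33 (SE 0.163), were the 2 members with all YAP3d libraries below WT, as were 4.07% of genes. The sign of Gata4, Maf, Meis2, Tfec, Nr2f2 and Erg changed under some other settings.

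Between YAP7d and YAP3d, in mice of 1 genotype, 7 of 10 members were lower, where 7.68% of genes were. They were Gata4 (-0.89 on the log2 scale), Maf (-1.36), Meis2 (-0.54), Tfec (-0.97), Klf2 (-0.80), Klf4 (-1.33) and Nr2f2 (-0.73). Erg differed by -0.67 on the log2 scale (edgeR, SE 0.250, adjusted p 0.0778), Mecom by -0.40 on the log2 scale (edgeR, SE 0.461, adjusted p 0.609) and Sox18 by -0.054 on the log2 scale (edgeR, SE 0.158, adjusted p 0.865). YAP7d libraries lay below all YAP3d libraries for 8 of 10 members, all but Mecom and Sox18, and for 14.5% of genes. Without YAP7d replicate 3, which held 63 of the 109 YAP7d cells, 4 members were called. The share of all genes called in that fit is not given, so the lower count is not read as particular to the members. The comparisons of YAP7d with WT and with YAP3d share the YAP7d libraries, and those with WT share the WT libraries, so they are not independent.

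**Figure D3:**
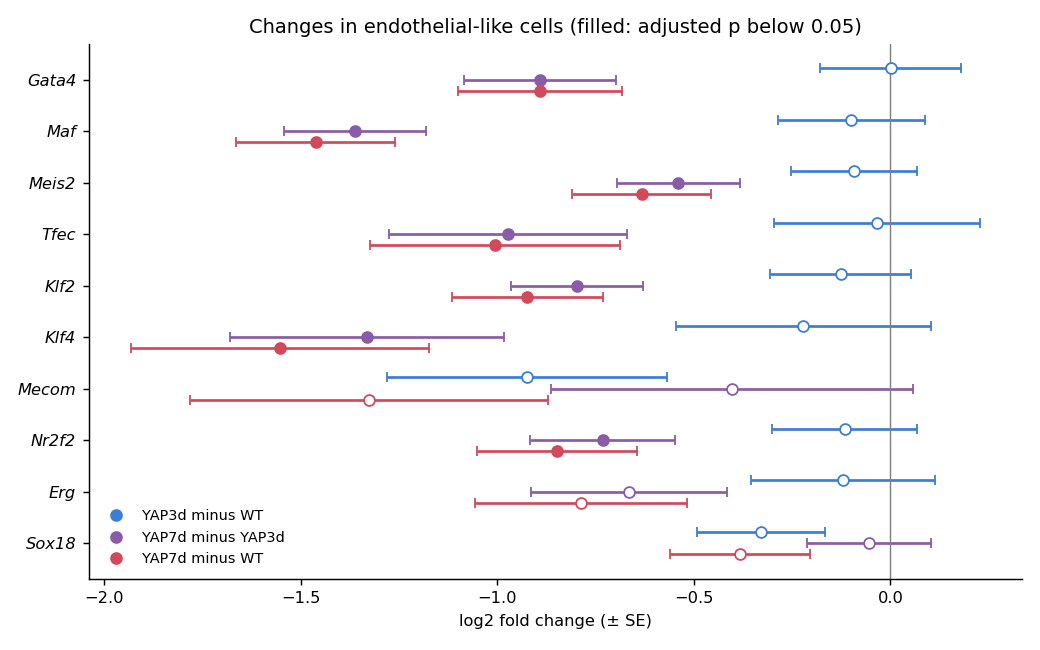
Log2 difference (horizontal axis) with SE for each of the 10 genes in endothelial-like cells in the 3 comparisons, with filled points for an edgeR adjusted p below 0.05. For YAP3d minus WT no point is filled, and for YAP7d against either group 7 points are filled, all left of 0.

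More UMIs were captured per cell in YAP7d, so levels were also given as UMIs of a member per cell. The median was 2348 and 4660 UMIs per endothelial-like cell in WT, 2324 to 4719 in YAP3d and 7351, 8292 and 14555 in YAP7d. Maf had 4.91 ± 0.177, 5.17 ± 0.647 and 5.10 ± 0.996 UMIs per cell in WT, YAP3d and YAP7d (SD over 2, 4 and 3 libraries), with overlap of the groups. Gata4 had 0.533 ± 0.132, 0.577 ± 0.0731 and 0.779 ± 0.219 UMIs per cell, Klf2 4.91 ± 1.17, 4.93 ± 0.929 and 7.18 ± 2.44 and Klf4 0.772 ± 0.0936, 0.724 ± 0.162 and 0.663 ± 0.658, in the same order. The groups overlapped for Klf2 and Klf4. For Gata4 all YAP7d libraries were above both WT libraries and overlapped with YAP3d. For Meis2 (1.54 ± 0.292, 1.58 ± 0.276 and 2.76 ± 0.179), Sox18 (1.33 ± 0.441, 1.15 ± 0.204 and 2.77 ± 0.221) and Erg (0.450 ± 0.0141, 0.452 ± 0.0734 and 0.731 ± 0.143) all YAP7d libraries were above all others. The share of all genes with higher UMIs per cell in YAP7d was not computed, so this is not read as particular to these genes. CPM gives a share of the captured RNA of a cell, and a higher UMI count per cell can come from more RNA or from deeper sequencing. The classes of the same libraries did not all rise alike. T cell-like cells had a median of 4066 and 4366 UMIs in WT and 5222, 4281.5 and 5930.5 in YAP7d, and B cell-like cells 3041 and 3023 in WT and 3188, 2650.5 and 5030.0 in YAP7d. In YAP7d replicate 2 these medians were thus within or below the range of WT, while those of endothelial-like cells (8292) and macrophage-like cells (8972, against 1777 and 7201 in WT) were above it.

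Each cell was therefore also thinned to 1500 UMIs, and the share of cells with at least 1 UMI was compared. Maf was detected in 91.4 ± 4.86, 90.8 ± 6.44 and 94.1 ± 2.40% of cells of WT, YAP3d and YAP7d unthinned, and after thinning in 81.5 ± 10.1% in WT, 82.7 ± 4.32% in YAP3d and 53.0 ± 10.6% in YAP7d. The thinned YAP7d values of Maf, 47.8, 65.2 and 46.0%, lay below all other libraries. Gata4 was detected in 35.2 ± 8.61, 36.1 ± 7.46 and 50.01 ± 7.86% of cells unthinned and in 17.8 ± 1.01% in WT, 19.1 ± 0.491% in YAP3d and 9.36 ± 3.40% in YAP7d after thinning, again with no overlap of YAP7d and the rest. Tfec had 23.4 ± 6.92, 24.3 ± 5.02 and 28.2 ± 12.1% unthinned and 10.5 ± 0.249% in WT, 7.70 ± 1.30% in YAP3d and 2.12 ± 3.67% in YAP7d thinned, with YAP7d lowest by a narrow margin. Klf2 had 79.0 ± 11.4, 77.6 ± 8.06 and 92.2 ± 5.78% unthinned and 69.6 ± 0.0316% in WT, 64.5 ± 1.91% in YAP3d and 57.7 ± 13.5% in YAP7d thinned, but the 73.0% of YAP7d replicate 3 was the highest of all libraries. For Klf4, Mecom, Meis2, Nr2f2, Erg and Sox18 the thinned YAP7d shares overlapped with at least 1 other group. Of the 10 members a thinned cell showed 3.62 and 3.34 on average in WT, 3.16 to 3.27 in YAP3d and 2.09, 2.39 and 2.48 in YAP7d. Thinning kept 184 of 275 cells in WT replicate 1, 57 of 74 in YAP3d replicate 1, 108 of 161 in YAP3d replicate 3 and all cells elsewhere. In T cell-like cells, which should lack them, the share of cells with a UMI ranged over the 9 libraries from 0 to 2.05% for Gata4 and from 0 to 2.56% for Sox18 unthinned, and up to 0.341 and 0.683% thinned.

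**Figure D4:**
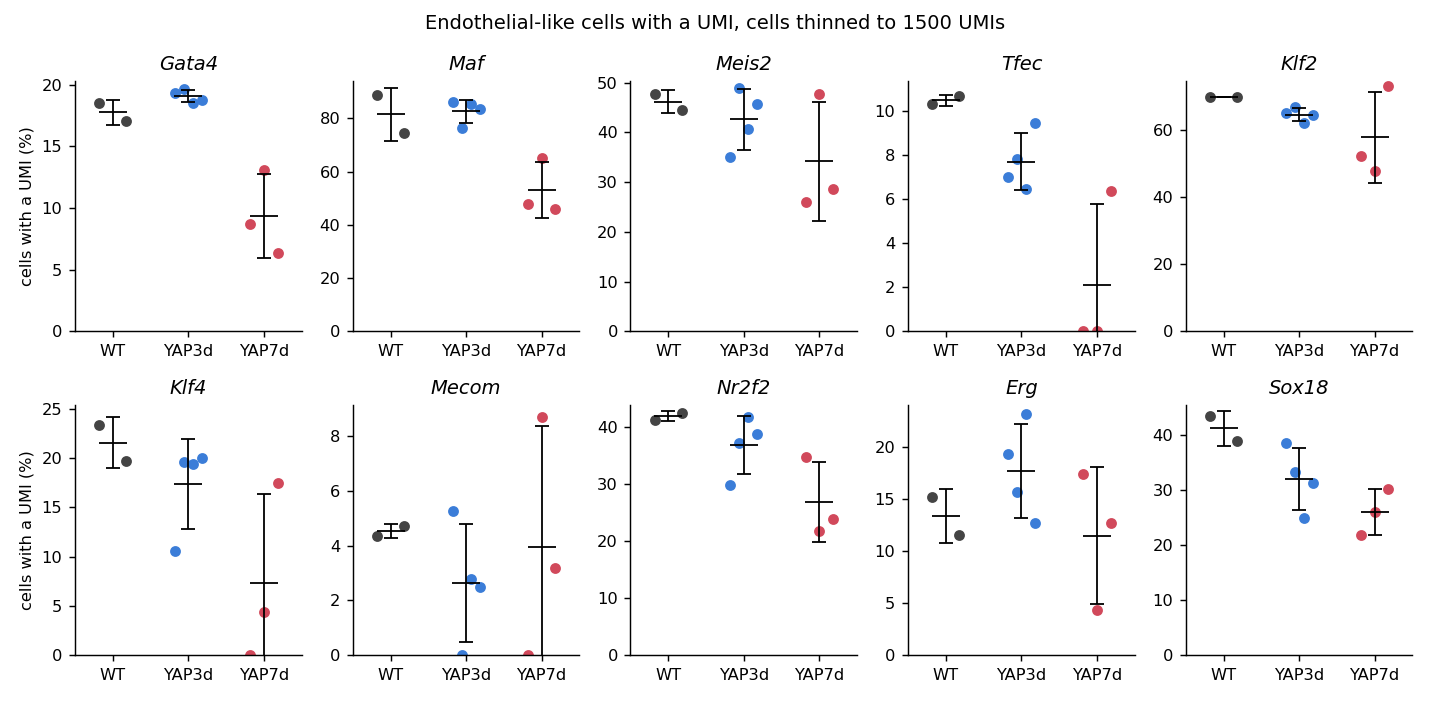
Percentage of endothelial-like cells with at least 1 UMI of each of the 10 genes after thinning to 1500 UMIs per cell (vertical axes, from 0), with 1 point per library and the mean with SD per group. YAP7d lies apart from the other groups for Maf and Gata4, and its points for Klf2, Meis2 and Erg overlap with them.

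The 4 clusters of the class were not spread evenly over the groups. Cluster 12 held 16 of 23, 17 of 23 and 59 of 63 YAP7d cells, 0 of 762 WT cells and 11 of 1047 YAP3d cells, while cluster 7 held 147 of 275 and 292 of 487 WT cells and was the most frequent cluster in YAP3d replicates 2, 3 and 4 (in YAP3d replicate 1 cluster 6 held 34 cells and cluster 7 held 33). The comparisons above therefore set mostly cluster 12 against clusters 6, 7 and 11. In YAP7d, the 92 cells of cluster 12 gave 66.8 CPM (53.1 to 82.9) of Gata4 and 433 CPM (397 to 471) of Maf, with exact Poisson 95% intervals in parentheses. The 11 YAP3d cells of cluster 12 gave 135 CPM (58.4 to 267) of Gata4 and 1048 CPM (804 to 1344) of Maf. In these few cells of the earlier time, Maf was thus above its level in YAP7d cells of that cluster.

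Outside cluster 12, the 17 remaining YAP7d cells were mixed differently from WT. Cluster 6, which had the lowest Klf2 and Klf4 of the endothelial-like clusters in WT, gave 46351 of their 96405 UMIs against 262342 of 3082740 UMIs in WT. Such intervals were made for the members only, so no share of all genes stands beside the counts of intervals that overlap or not. Without regard to that mix, the intervals of YAP7d and WT did not overlap for 5 of 10 members. These were Maf, at 477 CPM (349 to 636) against 1205 CPM (1167 to 1245) in WT, Klf2, at 829.8 CPM (658 to 1033) against 1270.0 CPM (1231 to 1310.4), Klf4, at 93.4 CPM (42.7 to 177) against 195 CPM (180.0 to 212), Nr2f2, at 218 CPM (135 to 333) against 358 CPM (338 to 380.2), and Sox18, at 197 CPM (119 to 308) against 349 CPM (329 to 371). Gata4, Meis2, Tfec, Mecom and Erg had intervals that overlapped. Within single clusters, the intervals of Klf2, Klf4, Nr2f2 and Sox18 overlapped in clusters 6, 7 and 11, and in cluster 6 Klf2 was at 626 CPM (419 to 899) in YAP7d against 499 CPM (418 to 593) in WT. Maf was lower in YAP7d without overlap in cluster 6, at 324 CPM (181 to 534) against 930.1 CPM (817 to 1054), and in cluster 7, at 633 CPM (354 to 1044) against 1353 CPM (1301 to 1407), and overlapped in cluster 11. Meis2 was higher in YAP7d in cluster 7, at 802 CPM (483 to 1252) against 442 CPM (412 to 473), where YAP7d had 4 cells. The intervals cover counting error only, libraries were summed, and no test was made between clusters.

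Within WT the intervals of clusters 6 and 7 did not overlap for 7 of 10 members, and overlapped for Gata4, Tfec and Sox18. Here too the share of all genes was not computed, so the count is not read as particular to the members. Maf, Meis2, Klf2, Klf4, Mecom and Nr2f2 were higher in cluster 7 and Erg in cluster 6. Meis2 had 213 CPM (161 to 277) in cluster 6 and 442 CPM (412 to 473) in cluster 7, Nr2f2 213 CPM (161 to 277) and 385 CPM (357 to 414), and Erg 194 CPM (145 to 256) and 109 CPM (94.9 to 125). Klf2 had 499 CPM (418 to 593) in cluster 6, 1270.0 CPM (1219.5 to 1322) in cluster 7 and 1484 CPM (1407 to 1563) in cluster 11. Klf4 followed the same order, with 53.4 CPM (29.2 to 89.5), 188 CPM (169 to 209) and 249 CPM (218 to 282). Mecom was highest in cluster 7, with 7.62 CPM (0.923 to 27.5), 48.5 CPM (39.1 to 59.6) and 10.6 CPM (5.07 to 19.4). The WT libraries filled the clusters differently, with 106 and 45 cells of WT replicates 1 and 2 in cluster 6, 147 and 292 in cluster 7 and 22 and 150 in cluster 11. Within each WT library, the intervals of clusters 6 and 7 did not overlap for Maf, Meis2, Klf2 and Klf4, all higher in cluster 7. For Nr2f2, higher in cluster 7, and Erg, higher in cluster 6, the intervals stood apart in replicate 1 alone, and for Mecom in replicate 2 alone. Erg in cluster 6 had 247 CPM (176 to 338) in replicate 1 and 115 CPM (59.3 to 200.4) in replicate 2. For Klf2 and Klf4, clusters 7 and 11 overlapped in replicate 1 and not in replicate 2. Cluster 6 had the fewest UMIs, with a median of 1785 per cell against 4047 in cluster 7 and 5862 in cluster 11.

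In macrophage-like cells 4 members were tested and edgeR called 0 between YAP7d and WT, with 3 at an unadjusted p below 0.05. Of 6727 genes 1229 were at an unadjusted p below 0.05 and 1.95% were called, and DESeq2 called 0 of the 4 members and 2.74% of genes. Maf had 512 and 482 CPM in WT, 551, 362, 535 and 508 CPM in YAP3d and 285, 283 and 114 CPM in YAP7d. YAP7d was lowest without overlap, and Maf differed from WT by -1.20 on the log2 scale (edgeR, SE 0.336, adjusted p 0.0706). Klf2 had 937 and 1275 CPM in WT, 534, 322, 747 and 1208 CPM in YAP3d and 487, 581 and 418 CPM in YAP7d. YAP3d spread across both other groups, and Klf2 in YAP7d differed from WT by -1.22 on the log2 scale (edgeR, SE 0.395, adjusted p 0.112). Klf4 had 65.4 and 184 CPM in WT, 34.4, 24.0, 62.9 and 227 CPM in YAP3d and 24.8, 38.3 and 48.8 CPM in YAP7d. YAP7d lay below WT and within the range of YAP3d, and Klf4 differed from WT by -1.92 on the log2 scale (edgeR, SE 0.630, adjusted p 0.117). Tfec differed by -0.67 on the log2 scale (edgeR, SE 0.376, adjusted p 0.365). Without YAP3d replicate 2, where 7.27% of genes were called, or without YAP3d replicate 4, where 4.56% were, Maf, Klf2 and Klf4 were called (3 of 4). With the replicate number as a block 2 of 4 members and 4.42% of genes were called. With the term for Gm10709 libraries the differences of Klf2 and Klf4 were 0.16 and 0.83, so their direction was not fixed.

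The macrophage-like class joined 3 clusters that the groups filled differently. Clusters 16 and 17 were led by Kupffer cell genes such as Clec4f and Vsig4, and cluster 19 by Cx3cr1 and Ccl7. Clusters 16, 17 and 19 held 47, 36 and 13 cells in WT, 63, 79 and 34 in YAP3d and 1, 380 and 408 in YAP7d. Maf was lower in YAP7d within cluster 17, at 191 CPM (181 to 202) against 533 CPM (394 to 705) in WT, and within cluster 19, at 153 CPM (144 to 162) against 407 CPM (301 to 538), with intervals that did not overlap. Klf4 was lower without overlap in both clusters too. Klf2 had 476 CPM (459 to 493) in YAP7d and 642 CPM (489 to 828) in WT in cluster 17, which overlapped, and 443 CPM (428 to 457) and 1170.5 CPM (985 to 1380.4) in cluster 19, which did not. Tfec overlapped in both. Libraries were summed, the intervals cover counting error only, and no test was made within clusters.

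For T cell-like cells 3 members were tested between YAP7d and WT, and edgeR called 0, with 0 at an unadjusted p below 0.05, as DESeq2 did. EdgeR called 0.0% of 6522 genes there, with 553 at an unadjusted p below 0.05, and DESeq2 called 0.477%. Klf2 had 689 and 1212 CPM in WT, 608, 875, 1018 and 1195 CPM in YAP3d and 1048, 1248 and 960.3 CPM in YAP7d. The groups overlapped, and the difference was 0.21 on the log2 scale (edgeR, SE 0.320, adjusted p 0.918), or -0.20 without WT replicate 1. Maf differed by -0.68 on the log2 scale (edgeR, SE 0.390, adjusted p 0.677). Klf4 differed by -0.87 on the log2 scale (edgeR, SE 0.782, adjusted p 0.830), or 0.31 without WT replicate 2. In B cell-like cells, where 0.0448% of genes were called, edgeR called 0 of 2 members (0 at an unadjusted p below 0.05), and DESeq2 was not run. Klf2 had 2259.8 and 2729 CPM in WT, 3871, 2783, 2403 and 2296 CPM in YAP3d and 3256, 2774 and 1395 CPM in YAP7d there. The YAP7d libraries spread from below to above WT, and the difference from WT was -0.043 on the log2 scale (edgeR, SE 0.270, adjusted p 0.9997). In NK or ILC1-like cells edgeR called 0 of 2 members between YAP7d and WT, with 2 at an unadjusted p below 0.05, where 964 of 4171 genes were at that p and 7.79% were called, and DESeq2 was not run. Klf2 had 664 and 1078 CPM in WT, 1014, 1105, 1171 and 808 CPM in YAP3d and 658, 704 and 430.5 CPM in YAP7d there. YAP7d overlapped with WT and lay below YAP3d. The differences from WT were -0.52 on the log2 scale (edgeR, SE 0.233, adjusted p 0.191) for Klf2 and -1.36 on the log2 scale (edgeR, SE 0.526, adjusted p 0.123) for Maf. Klf2 was lower in YAP7d than in YAP3d, with a difference of -0.67 on the log2 scale (edgeR, SE 0.2004, adjusted p 0.0340), 1 of 2 members in a comparison with 5.59% of genes lower. In the same comparison edgeR called 0 of 4 members in macrophage-like cells (2 at an unadjusted p below 0.05, 0.327% of genes called), 0 of 3 in T cell-like cells (1 at an unadjusted p below 0.05, 0.997%) and 0 of 2 in B cell-like cells (1 at an unadjusted p below 0.05, 0.0%). DESeq2 called 0 of 4 in macrophage-like cells, with 0.758% of genes, and 1 of 3 in T cell-like cells (Maf, -1.23 on the log2 scale), with 1.78%.

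Whether the differences between YAP7d and WT themselves differed between classes was tested with the library as a block. EdgeR called 0 of 7 such tests, with 1 at an unadjusted p below 0.05, and DESeq2 was not run. Endothelial-like minus macrophage-like differences, a test that 1.14% of genes passed, were -0.12 (SE 0.353) for Maf, -0.23 (SE 0.482) for Tfec, 0.23 (SE 0.413) for Klf2 and 0.24 (SE 0.532) for Klf4. Against T cell-like cells, where 2.37% of genes passed, they were -1.13 (SE 0.404) for Klf2, -0.64 (SE 0.348) for Maf and -0.54 (SE 0.623) for Klf4. For these 4 genes a change particular to endothelial-like cells was not shown.

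Other endothelial genes moved in both directions between YAP7d and WT. Of 15 sinusoidal genes linked to Gata4 and Maf, 14 were tested, 9 were lower and 0 higher, with a median log2 difference of -1.07. Ehd3, an endocytic gene of sinusoidal cells, had 2623 ± 91.2 CPM in WT (2 libraries) and 628 ± 51.3 CPM in YAP7d (3 libraries) and was lower, at -1.99 on the log2 scale. F8, coagulation factor VIII (difference -2.02), Wnt2, a ligand that sinusoidal cells supply to hepatocytes (-1.50), and the lectin Cd209b (-3.45) were lower too. Of 14 genes of continuous capillaries 11 were tested, 4 were higher and 1 lower, with a median of 0.39. Cd34, a sialomucin of continuous endothelium, had 12.5 ± 2.52 CPM in WT (2 libraries) and 94.3 ± 33.9 CPM in YAP7d (3 libraries) and rose by 3.14. The endothelin receptor Ednrb rose by 2.88, the fatty acid-binding Fabp4 by 1.49 and the matrix gene Sparc by 0.79, and Ly6a fell by 1.24. With the term for Gm10709 libraries 6 sinusoidal genes were lower and 1 capillary gene was higher, and the counts without single libraries and under the other settings ranged from 5 to 10 and from 1 to 5. Fabp4 and Ednrb were among the 10 leading genes of cluster 12.

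Of 50 other endothelial transcription factors 36 were tested, 8 were lower and 2 higher, with a median of -0.44. The hypoxia-inducible Epas1 (-1.76 on the log2 scale), the inhibitory Smads Smad7 (-1.62) and Smad6 (-1.23) and the interferon factor Irf1 (-1.06) were lower. Mef2c, a MADS-box factor upstream of Klf2 in endothelium, had 179 ± 19.8 CPM in WT (2 libraries) and 291 ± 40.2 CPM in YAP7d (3 libraries) and rose by 0.75, and Bcl6b rose by 0.85. Of 39 relatives of the members in the same families 19 were tested, 3 were lower (Klf7 at -0.91, Ets1 at -0.79 and Klf13 at -0.75) and 0 higher, with a median of -0.53.

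Of 10 genes linked to Klf2 and Klf4 under flow, 7 were tested, 1 was lower (Slc9a3r2, -0.78) and 0 higher, with a median of 0.27. Of 13 Erg and SoxF targets 13 were tested, 2 were lower (the Notch ligand Dll4 at -1.13 and the receptor Notch1 at -1.005) and 2 higher (Rasip1 at 0.69 and Icam2 at 0.62), with a median of -0.13. Of 12 venous and arterial genes 8 were tested and 3 were lower (Dll4, Notch1 and Nrp1, the last at -0.99), with a median of -0.75. Of 16 endothelial markers 10 were lower and 0 higher, with a median of -0.61, led by Ptprb (-2.38), Clec4g (-2.16), Dnase1l3 (-1.96) and Tek (-1.34). These markers were also used to name the class, so their differences within it are described and are not separate support.

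**Figure D5:**
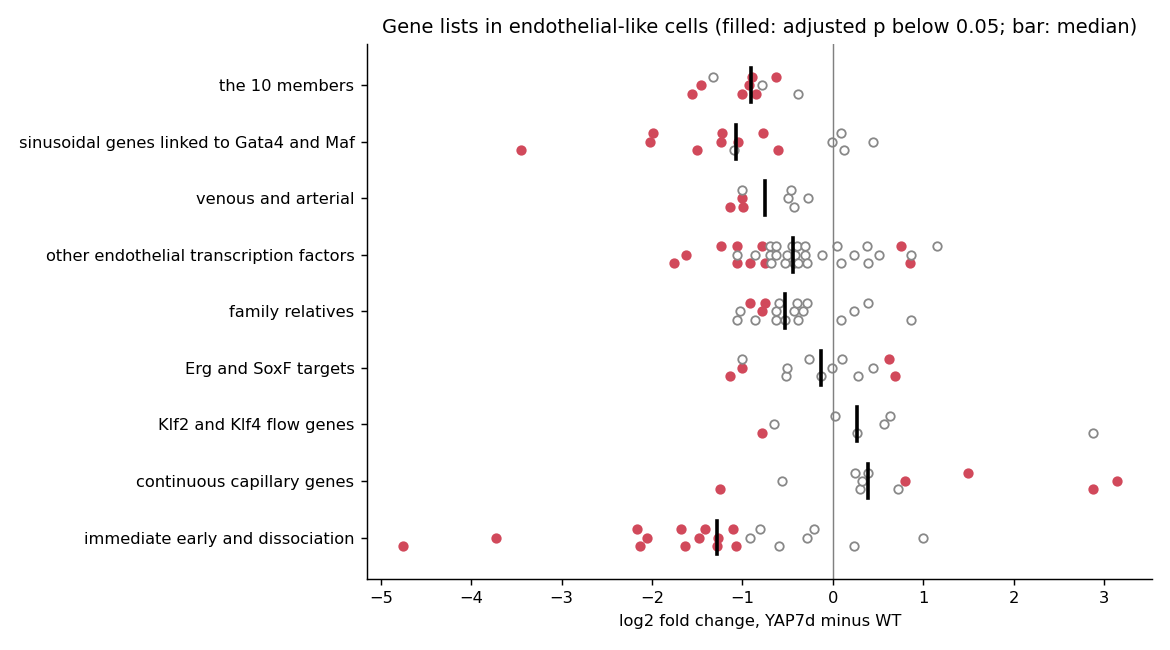
Log2 difference between YAP7d and WT in endothelial-like cells (horizontal axis) of each tested gene of the lists on the vertical axis, with filled points for an edgeR adjusted p below 0.05 and bars at the medians. The medians of the sinusoidal (-1.07) and immediate early (-1.28) lists lie left of 0 and those of the capillary (0.39) and flow (0.27) lists right of it.

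Immediate early and proliferation genes moved with the same groups. Of 21 immediate early and dissociation genes 20 were tested, 13 were lower in YAP7d than in WT and 0 higher, with a median of -1.28 and a summed level of 10068 to 12558 CPM in WT, 8135 to 11292 in YAP3d and 3869.6 to 4207 in YAP7d. Fos (-2.06 on the log2 scale), Egr1 (-2.17), Fosb (-2.14), Jun (-1.10) and the heat-shock genes Dnajb1 (-1.28), Hspa1a (-3.72) and Hspa1b (-4.76) were lower. Atf3 differed by -0.81 (edgeR adjusted p 0.0635). Of 37 proliferation genes 33 were tested, 31 were higher and 0 lower, with a median of 3.89 and a summed level of 417 to 554 CPM in WT, 466 to 1328 in YAP3d and 2264 to 3299 in YAP7d. Thymidine kinase Tk1 rose by 5.85, cyclin Ccna2 by 5.44, Pbk by 5.003 and Gins2 by 4.73. In endothelial-like cells with at most 0.2% of their UMIs in the proliferation list, Mecom passed the threshold and Meis2 and Tfec missed it.

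Summed levels of markers of other cell types are given for endothelial-like cells. The 12 macrophage markers, of which 9 to 12 had counts in each library, summed to 221 to 443 CPM in WT, 122 to 891 in YAP3d and 379 to 813 in YAP7d. The 8 T cell markers in the table summed to 38.0 to 94.6 CPM in WT, 17.4 to 96.7 in YAP3d and 0 to 36.0 in YAP7d, where all 8 were at 0 in replicate 1. The 12 hepatocyte markers summed to 132 to 218 CPM in WT, 206 to 318 in YAP3d and 107 to 147 in YAP7d, and the 10 stellate or fibroblast markers to 52.3 to 52.6, 44.5 to 132 and 2.25 to 4.67 CPM. The 10 neutrophil markers summed to 54.7 to 121 CPM in WT, 24.4 to 308 in YAP3d and 23.4 to 710.4 in YAP7d, and the 10 monocyte markers to 16.6 to 66.0, 3.48 to 73.8 and 28.0 to 249.9 CPM. Both sums were highest in YAP7d replicate 3, the YAP7d library with the highest Klf4 level and the highest thinned share of Klf2, and both genes had counts in monocyte-like cells of every group. The Klf2 level was instead highest in YAP7d replicate 2 among the YAP7d libraries, at 789 CPM against 665 CPM in replicate 3. With at most 0.1% of UMIs in 7 leukocyte genes and no doublet calls, Klf2 and Klf4 had differences between YAP7d and WT of -0.89 and -1.71 on the log2 scale, and both were called. The 7 pDC markers summed to 1209 to 1830.5 CPM in WT, 1195 to 1606 in YAP3d and 645 to 1299 in YAP7d, mostly from Bst2, an interferon-induced gene, whose difference of -0.54 on the log2 scale missed the threshold (edgeR, adjusted p 0.139). The 6 plasma cell markers in the table summed to 139 to 184 CPM in WT, 102 to 172 in YAP3d and 79.9 to 104 in YAP7d, and the 7 cDC1 markers to 58.9 to 64.2, 41.5 to 73.1 and 32.7 to 45.1 CPM. In both lists YAP7d lay below WT, and the 1 gene tested was called lower, Xbp1 at -0.89 and Tlr3 at -1.34 on the log2 scale. The 7 erythroid markers summed to 253 to 2156 CPM in WT, 18.5 to 1907 in YAP3d and 4.67 to 18.04 in YAP7d, and 3 of the 4 tested were lower in YAP7d than in WT. The part of these markers, of the immediate early genes, of proliferation, of RNA content per cell and of Gm10709 in the lower levels of the members was not tested beyond the settings given.

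Over 81 sums of class and library from 13 classes, the genes with the highest Pearson correlation of log2 CPM with each member were described, with class markers left out. They were Gja4 (0.924) and Jam2 (0.892) for Gata4, Mrc1 (0.799) and Tspan15 (0.795) for Maf, Timp3 (0.947) and Col4a1 (0.947) for Meis2 and Mertk (0.900) and Tspan15 (0.871) for Tfec. For the flow pair they were Srgn (0.831) and Arhgdib (0.817) for Klf2 and BC028528 (0.762) and Lmo2 (0.746) for Klf4. For the vascular members they were Sox7 (0.939) and Vstm4 (0.936) for Mecom, Msrb3 (0.909) and Fam124a (0.906) for Nr2f2, Myct1 (0.907) and Afap1l1 (0.899) for Erg and Hecw2 (0.932) and Flt4 (0.925) for Sox18. Tspan15 was named for both Maf and Tfec, the members with macrophage-like cells as their second class. The sums share libraries and depths and are not independent.

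All 10 genes are protein-coding in RefSeq (GRCm38.p6). Gata4 spans 63198914 to 63271712 of chromosome 14, Tfec 16830927 to 16898464 of chromosome 6, Meis2 115861264 to 116067537 and Sox18 181669837 to 181671640 of chromosome 2, and Maf 115703253 to 115706894 and Klf2 72319062 to 72321654 of chromosome 8. Klf4 spans 55527137 to 55532475 of chromosome 4, Mecom 29951296 to 30509759 of chromosome 3, Nr2f2 70351946 to 70366746 of chromosome 7 and Erg 95359169 to 95586600 of chromosome 16.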

How the data were processed

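Per the labels and the study's methods, the authors aligned droplet libraries of dissociated livers to mm10 with Cell Ranger and used Seurat 2. The labels name Chromium v2 and v3 reagent kits for every library without saying which was used, and the study's methods give v2 for whole liver tissue. A kit difference between groups was not tested. The deposited values are raw UMI counts per gene and cell. Here cells were scaled to 10000, clustered on 2363 variable genes without the members (30 components, 15 neighbours, Leiden resolution 1, scanpy 1.11.5) and named when at least 3 fixed markers of a class were raised, no other class had more markers among the 10 genes with the largest fold, and, where the median UMI count was below 1/3 of the libraries' own, at least 1 marker stood among those 10. Doublet calls (60 cells, 0.704%) were kept. Counts summed per class and library (at least 10 cells) were fitted over all 9 libraries with edgeR 4.0.16 in R 4.3.3 (filterByExpr, TMM, quasi-likelihood test), with DESeq2 1.42.0 as an alternative. The SE is the log2 difference divided by the square root of F. The fits were tested on simulated data. Nothing in the labels ties libraries to separate mice, so p-values measure the spread between libraries. The members and lists were chosen with earlier results of these data known. All 10 members are named, and per list at most the 4 largest rises and 4 largest falls among called genes whose groups did not overlap, plus 6 set immediate early genes. Alternatives that added cluster 8, limited leukocyte or proliferation UMIs or had a term for large libraries were chosen after seeing the data.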

Additional observations from a re-analysis of the deposited data

Results flagged for a closer look

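The 28 cells of cluster 8 had all 16 endothelial markers raised but got no class name, because the 10 genes with the largest fold held a plasma cell marker (Sdc1) and no endothelial marker, so the comparisons of endothelial-like cells left them out. Its 16 WT cells gave 349 CPM (230.3 to 508) of Mecom, from 27 counts, against 48.5 CPM (39.1 to 59.6) in cluster 7, the highest of the endothelial-like clusters with WT cells. The level was singled out because it is a signal in cells outside the class compared, though alternative settings took these cells in (the class with cluster 8 added, and Leiden resolution 2). The 10 YAP3d cells of cluster 8 gave 260.0 CPM (142 to 436). The intervals are exact Poisson 95% intervals for counting error, and 15 of the 16 WT cells came from WT replicate 2.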

How the results depend on the processing

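Between YAP7d and WT, the count of members called in endothelial-like cells (7) was 3 with cells thinned to 1500 UMIs (Maf, Klf2 and Sox18; Mecom and Tfec were too low to test), 3 with a gate on fixed markers in place of clusters (Maf, Klf2 and Klf4) and 3 with the term for Gm10709 libraries, and ranged from 5 to 9 without single libraries. No member changed sign there. Between YAP7d and YAP3d (7) these settings gave 3, 4 and 4, and 4 to 7 without single libraries, with 4 without YAP7d replicate 3. Sox18 ranged from -0.12 to 0.065 there without single libraries and was 0.065 without YAP7d replicate 3. Over all 24 alternative settings the Sox18 difference between YAP7d and YAP3d ranged from -0.56 to 0.065. Between YAP3d and WT 0 members were called by edgeR under every setting run, and small differences changed sign. Gata4 was -0.13 with thinning, -0.019 at a low proliferation share, -0.027 with no low-count filter, -0.041 with the replicate block, -0.022 with a stricter cell filter, -0.0084 with the Gm10709 term and -0.00094 without Vwf-raised clusters. Tfec was 0.016 with DESeq2, 0.060 with few leukocyte UMIs, 0.072 with the gate and 0.23 with the replicate block. With thinning Meis2 was 0.00042, Nr2f2 0.14 and Erg 0.30. Without single libraries Gata4 ranged from -0.042 to 0.034, Maf -0.39 to 0.27, Meis2 -0.19 to 0.0051, Tfec -0.15 to 0.23, Nr2f2 -0.24 to 0.021 and Erg -0.38 to 0.15. In macrophage-like cells (0 of 4) the count was 2 with no low-count filter, 2 with the replicate block, 1 with a term for the 3 largest libraries and 0 to 3 without single libraries, and with the Gm10709 term Klf2 was 0.16 and Klf4 0.83. In T cell-like cells Klf4 was 0.62 with that term, and without single libraries Klf2 ranged from -0.20 to 0.73 and Klf4 -4.12 to 0.31. The cause of these changes was not tested. The replicate numbers were not shown to pair the libraries (correlations of deviations -0.178 to 0.144 for equal and -0.330 to 0.330 for unequal numbers). The 2 WT libraries deviate from their mean by equal and opposite amounts. Correlations with WT thus occur with both signs, and these ranges cannot settle the pairing. With the replicate number as a block 6 members were called in either comparison with YAP7d. Leaving out all cells with a leukocyte UMI, or with more than 1 proliferation UMI, was not run because too few YAP7d cells remained. The 23, 23 and 63 YAP7d cells limit the precision of scarce members. Where no share of all genes is given for a setting, its count of members called is not read as particular to the members.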

Other observations

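The WT cells of cluster 8 also gave 2239 CPM (1918 to 2599) of Klf2 and 479 CPM (337 to 660.2) of Klf4, against 1270.0 CPM (1231 to 1310.4) and 195 CPM (180.0 to 212) in the endothelial-like WT cells. Maf was at 492 CPM (348 to 675) against 1205 CPM (1167 to 1245). Vwf and Jag1 were among the leading genes of cluster 8. The cluster was chosen after its values were seen, and no test was made.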
